A study of Rattus norvegicus with 12 samples.

Results

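The course of the untreated diabetic wound was followed in the 3 control libraries of this series, 1 each on day 3, 7, and 14, out of 12 libraries altogether. The wounds were full-thickness punch wounds on the back of young adult male Sprague Dawley (SD) rats made diabetic with streptozotocin, a toxin of the insulin-producing beta cells. The control wounds received saline according to the methods of the study, and the other 9 libraries came from wounds dressed with d-SMG (dried snail-mucus glue of *Achatina fulica*), s-GAG (its sulfated glycosaminoglycan), or Alg (an alginate dressing), 1 library for each dressing and day. All 12 groups therefore share the diabetes and the wound, and no library from intact or non-diabetic skin was analysed here. Whether a library came from 1 rat or from pooled rats is not stated. The methods of the study state that rats were euthanized after wound tissue was taken for histology. If the sequenced tissue was taken in the same way, each day came from other rats, and day and rat cannot be told apart. Words such as fell, rose, or returned below compare libraries and do not follow 1 wound. The libraries were prepared from total RNA of skin, depleted of ribosomal RNA (rRNA) and stranded, and the values used here are the reads the authors counted on each gene.

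Skin wounds close through overlapping phases. Platelets and damaged cells first call in neutrophils and then monocytes, which clear debris and secrete cytokines. Fibroblasts and new vessels next fill the gap with granulation tissue rich in collagen, tenascin, and fibronectin, while basal keratinocytes crawl over it and only afterwards rebuild the stratified, cornifying epidermis. In diabetes the inflammatory phase is known to last longer and the matrix phase to come late.

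Reads counted on genes numbered 23921685 for the control wound of day 3, 14928702 for day 7, and 20189078 for day 14. Levels are given as CPM, reads per 1000000 of the library total after TMM scaling, and the TMM factors of the control libraries lay between 0.983 and 1.016. Of 25620 genes, the 13159 with at least 50 reads in 1 of the 3 control libraries were followed, and counts under 3 reads were set to 3 reads before a ratio was taken. The median gene moved by -0.037 on the log2 scale from day 3 to day 7, by 0.006 from day 7 to day 14, and by -0.044 from day 3 to day 14. With 1 library a day the control course has no replicate check, and the intervals given below are exact Clopper-Pearson intervals at 95% on the 2 read counts, which cover the counting error only. Keratins Krt5 and Krt14 of the epidermis were read at 919 to 1379 and 2410 to 3096 CPM on the 3 days, and genes of skeletal muscle sarcomeres took 10.2%, 7.56%, and 8.39% of the reads on day 3, 7, and 14. Sums over a list below include its members under the minimum. In such bulk tissue, fewer cells of a type and less RNA per cell cannot be told apart.

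A test was possible only if the single control library of a day was assumed to vary like the 3 dressed libraries of that day. Under this assumption the quasi-likelihood test of edgeR called 0 of 16809 genes (0%) at an FDR of 0.05 between day 7 and 3, day 14 and 7, and day 14 and 3, with a smallest adjusted p of 0.958, 0.5, and 0.598, respectively. At an unadjusted p under 0.05 it gave 675, 595, and 521 genes, and DESeq2 called 50, 15, and 16 genes in the same contrasts. The difference between the control course and the dressed course was also called for 0 genes (0%) in each of the 3 contrasts, with 330, 619, and 815 genes at an unadjusted p under 0.05 and 2, 20, and 15 genes called by DESeq2. DESeq2 was run without the filter that left 16809 genes and tested 25339, so its counts have another base. The biological coefficient of variation of the edgeR fit was 0.495 with 6 residual degrees of freedom. The 3 dressed libraries of a day carry 3 different dressings, so this spread holds differences between dressings as well as between wounds. The courses below are therefore a description of 3 libraries by size of change, and no gene in them passed the main test.

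Genes were sorted by a 4-fold difference. A gene was put in the falling course if day 14 was at least 4-fold below day 3 with day 7 between them, in the rising course for the reverse, in the peaking course if day 7 was at least 4-fold above both other days, and in the dipping course if it was at least 4-fold below both. The falling course held 119 genes (0.904%), the rising course 284 (2.16%), the peaking course 116 (0.882%), and the dipping course 90 (0.684%). Another 8343 genes (63.4%) stayed within 2-fold over all 3 days. Between neighboring days the counts past 4-fold were 342 lower (2.6%) and 348 higher (2.64%) on day 7 than on day 3, and 245 lower (1.86%) and 420 higher (3.19%) on day 14 than on day 7. Between the ends of the course, 237 genes were lower (1.8%) and 436 higher (3.31%) on day 14 than on day 3. Counts of list members below are to be set beside these shares of all genes. Long noncoding RNAs made up 15 of the falling, 33 of the rising, 10 of the peaking, and 8 of the dipping genes. In 10, 30, 9, and 8 genes of these courses, respectively, at least 1 day lay under 3 reads, so that their size rests on that floor. A gene that passed the minimum of 50 reads on only 1 day had to differ between days, and the counts are read with that in mind. At the edge of the rule, LOC100909637 with a log2 ratio of -2.004 between day 14 and 3 was just inside the falling course and Scimp with -1.995 just outside it, and Slc38a3 with 2.008 was just inside the rising course and Zfc3h1 with 1.993 just outside it.

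**Figure D1:**
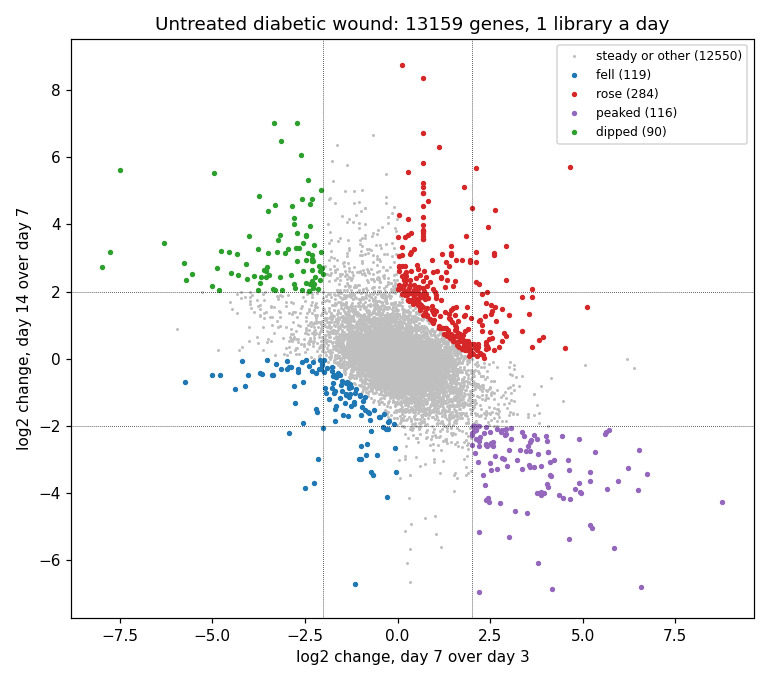
Each point is 1 of the 13159 genes, with the log2 change from day 3 to day 7 on the x axis and from day 7 to day 14 on the y axis in the control wound (1 library a day). Colors mark the 119 falling, 284 rising, 116 peaking, and 90 dipping genes, dotted lines mark 4-fold, and genes under 3 reads on both day 3 and day 7 line up at x = 0.70, the difference in library size between those days.

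Transcript length moved with the control course. The length of each gene, as implied by its reads and its deposited FPKM, was used to divide the 13159 genes into 10 bins of 1316 genes or nearly so. In the shortest bin (median 1.03 kb) the median log2 change from day 3 to day 7 was -0.66, and in the longest (median 12.7 kb) it was 0.57. Between day 7 and day 14 the same bins differed little, with medians of 0.03 and 0.12. The median length was 1.84 kb in the falling, 4.58 kb in the rising, 5.96 kb in the peaking, and 2.65 kb in the dipping course, against 3.76 kb over all genes. When the median change of its bin was taken from each gene, a correction chosen after the data were seen, the courses held 89, 276, 109, and 82 genes, and 76 of the 119 falling, 211 of the 284 rising, 97 of the 116 peaking, and 75 of the 90 dipping genes were still in their course.

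**Figure D2:**
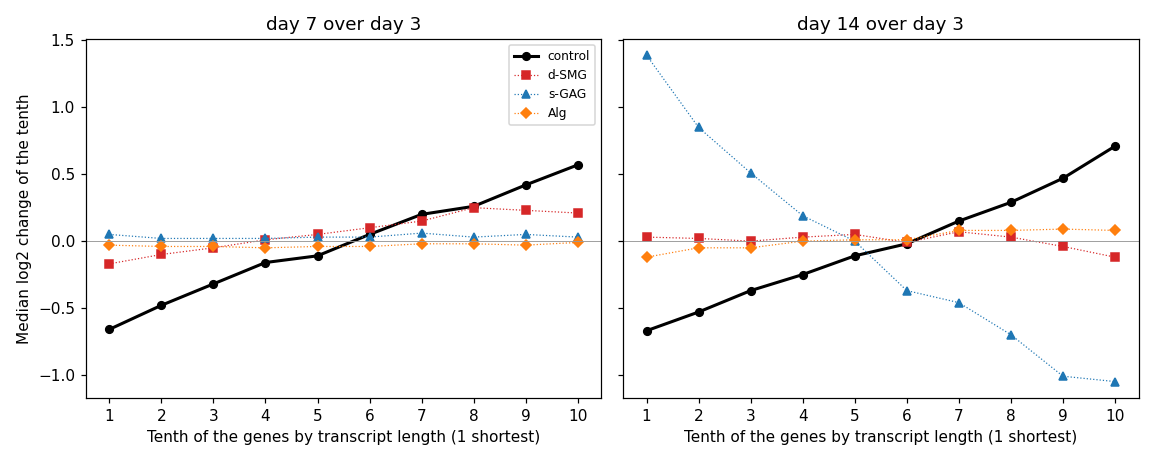
The median log2 change of each of 10 bins of genes by length (1 shortest, 10 longest) from day 3 to day 7 and from day 3 to day 14, 1 line per treatment with 1 library a day. In the control the median runs from -0.66 to 0.57 for day 7 over day 3, while s-GAG on day 14 runs the other way, from 1.39 to -1.05.

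The genes with the largest changes came from different tissues of the wound. In the falling course the leading genes were RT1-CE16 and RT1-A3 (class I histocompatibility genes), Gal (the neuropeptide galanin), Acod1 (the itaconate-producing enzyme of activated macrophages), Mt1m (a metallothionein), and Fam111a (a protease that restricts viral replication). RT1-CE16 was read at 538, 243, and 2.34 CPM on day 3, 7, and 14, and RT1-A3 at 248, 43.6, and 3.02 CPM. Both have near-identical copies and differ between rats of an outbred stock, so that their values are uncertain. The RT1 genes named further below are to be read with the same caution. Fam111a stood at 131, 10.4, and 7.61 CPM and was 12.6-fold lower on day 7 than on day 3 (95% interval of the log2 ratio -3.90 to -3.42). Acod1 had 136, 4, and 3 reads, Mt1m 140, 5, and 4 reads, and Gal 216, 28, and 1 reads, all 3 highest on day 3.

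The rising course was led by genes of cornifying epithelium and hair, namely Flg2 (filaggrin 2), Crnn (cornulin), Krt25 and Krt27 (keratins of the inner root sheath of the hair), and Tchh (trichohyalin), together with Alas2, the first enzyme of heme synthesis in red cell precursors. Flg2 had 6, 4, and 2386 reads and was 461-fold higher on day 14 than on day 3 (log2 interval 7.73 to 10.30). Tchh was read at 19.6, 67.4, and 2331 CPM. Crnn went from 0 reads on day 3 to 4 on day 7 and 439 on day 14, at least 170-fold higher than a floor of 3 reads in the day 3 library. Of these 6 genes, Alas2 alone made its larger step before day 7, with 0.252, 8.72, and 25.6 CPM, while the other 5 made theirs between day 7 and day 14.

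The peaking course was led by Prokr2 (a prokineticin receptor), Tnc (tenascin C, a matrix protein of healing wounds), Ptx3 (pentraxin 3, a soluble pattern receptor), Egfl6 (an EGF-repeat matrix protein), Cxcl6 (a neutrophil chemokine), and Macroh2a2 (a histone variant). Tnc stood at 23.8, 870, and 28.3 CPM, 36.6-fold higher on day 7 than on day 3 (log2 interval 5.07 to 5.32) and 30.7-fold lower again on day 14. Ptx3 stood at 11.1, 275, and 6.68 CPM. Egfl6 had 1 read on day 3, 810 on day 7, and 59 on day 14, and the counting interval of its first log2 ratio ran from 7.88 to 15.66. Cxcl6 had 120, 1331, and 16 reads and ended below its day 3 level.

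The dipping course was led by Gbp1 and Mx2 (interferon-induced GTPases), Loricrin (the main protein of the cornified envelope), RT1-N2 (a class I gene), P2ry14 (a receptor for UDP-glucose), and Apod (apolipoprotein D). Gbp1 had 1651, 33, and 2128 reads and Apod 936, 62, and 1010, so that both returned on day 14 to within 1.5-fold of day 3. Mx2 returned in part, and Loricrin stood at 6.14, 0.613, and 79.6 CPM, above its start on day 14.

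**Figure D3:**
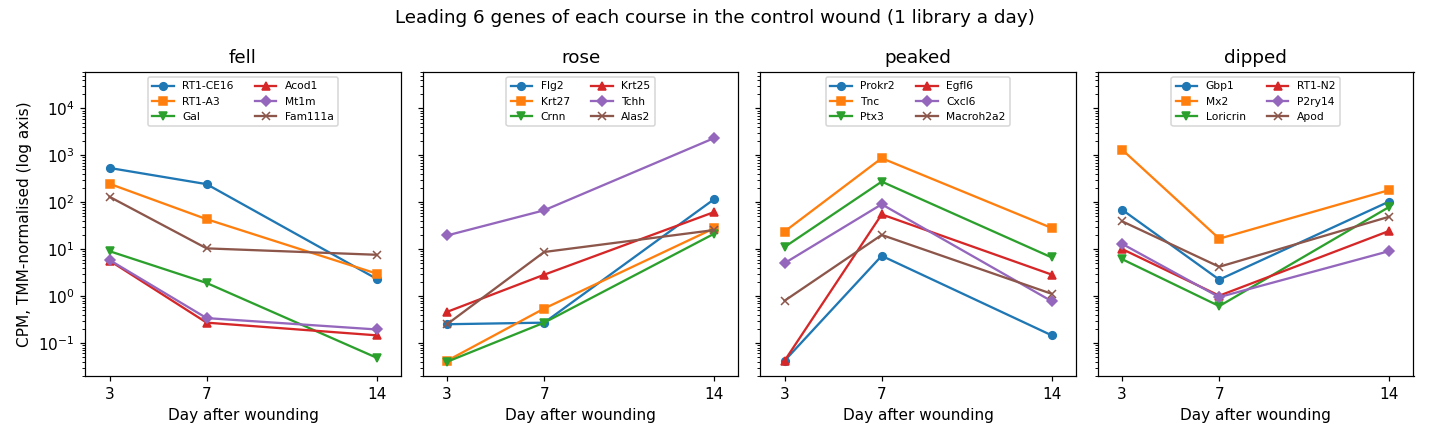
CPM on a log axis against the day after wounding for the 6 leading genes of each course in the control wound, 1 library a day, with 0 reads drawn at 0.04 CPM. The peaking genes stand between 7.22 and 870 CPM on day 7, and the dipping genes lie between 0.613 and 16.8 CPM on that day.

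Between day 3 and day 7 the interferon response had the largest median shift of the 34 lists examined, although with the correction for length its median log2 ratio of -3.43 came second in size to the 4.02 of the erythroid list. Interferons act through a shared element in the promoters of antiviral genes, and their products block viral RNA (Oas, Ifit, and Mx genes), tag proteins (Isg15), or call in T cells (Cxcl9, Cxcl10, and Cxcl11). Of 37 listed genes 36 passed the minimum, and the list summed to 7205 CPM on day 3, 587 on day 7, and 1502 on day 14. Between day 3 and day 7, 31 of 36 were at least 4-fold lower, against 2.6% of all genes. The number at least 4-fold higher was 0, against 2.64%, and the median log2 ratio was -3.59. On day 14, 8 were at least 4-fold above day 7, against 3.19% of all genes. The median of this step was 1.41, which left a median of -2.24 against day 3. The 7 genes Mx1, Mx2, Rsad2, Irf7, Usp18, Cxcl10, and Ifi44l were in the dipping course, against 0.684% of all genes. Ifit3 was in the falling course and Ifit1 in the rising course.

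The promoters of the listed genes were then read. RefSeq promoters of 300 bases (250 before and 50 after the gene start, build GRCr8) were found for 25 of the 36 genes by symbol, and 17 of the 25 (68%) held the core of the interferon-stimulated response element, taken as GAAA, any 2 bases, and GAAA again on either strand, against 1312 of all 33469 promoters (3.92%). Of the 15 matched promoters of collagen and matrix genes 0 held it, and 1 of 17 of differentiated epidermis did. The list was made of known interferon response genes, so its share describes the list and is not a result about this wound. Matches may overlap each other, and a match is not a bound site. The 100 bases before the start are shown for the 4 genes with the most reads on day 3 among those whose every match lay in that stretch, 5′ to 3′ on the gene's strand, with the match in capitals.
Gbp2: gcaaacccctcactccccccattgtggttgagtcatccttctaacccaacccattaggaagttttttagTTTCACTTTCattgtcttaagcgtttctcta
Ifit3: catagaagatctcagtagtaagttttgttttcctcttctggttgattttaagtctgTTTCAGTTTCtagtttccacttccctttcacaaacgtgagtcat
Gbp5: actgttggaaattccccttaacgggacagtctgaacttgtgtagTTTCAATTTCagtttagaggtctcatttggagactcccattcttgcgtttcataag
Irf7: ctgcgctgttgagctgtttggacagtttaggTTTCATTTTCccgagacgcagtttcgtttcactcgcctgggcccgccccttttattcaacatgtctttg
They lie at chr2:234005627-234005726 on the plus strand (Gbp2), chr1:241527226-241527325 on the plus strand (Ifit3), chr2:233910899-233910998 on the plus strand (Gbp5), and chr1:205800024-205800123 on the minus strand (Irf7). The match starts 31, 44, 56, and 69 bases before the gene start, respectively, and in all 4 the GAAA repeat lies on the strand opposite to the gene, so that it reads as TTTC on the strand shown.

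Gbp2, a guanylate-binding GTPase, was read at 1228, 101, and 259 CPM on day 3, 7, and 14. Ifit3, which binds foreign RNA with its relatives, stood at 771, 66.4, and 64.8 CPM and did not come back. Gbp5 stood at 270, 28.7, and 102 CPM, and Irf7, the transcription factor that amplifies the interferon response, at 203, 7.49, and 69.7 CPM. Irf7 was 27.1-fold lower on day 7 than on day 3 (log2 interval -5.05 to -4.49) and 9.3-fold higher on day 14 than on day 7.

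From day 3 to day 7, Mx2, Mx1, Isg15, Rsad2, and Cxcl10 moved further than Gbp2, Ifit3, Gbp5, and Irf7. Mx2 had 31431, 246, and 3732 reads and was 78.8-fold lower on day 7 than on day 3 (log2 interval -6.49 to -6.12). Mx1 stood at 602, 12.9, and 74.9 CPM, and Isg15, a ubiquitin-like tag, at 385, 9.88, and 39.1 CPM. Rsad2 (viperin) had 1712, 20, and 143 reads and Cxcl10 1222, 3, and 28, the latter 251-fold lower on day 7 with a log2 interval of -10.25 to -6.42. Irf9, a transcription factor of the interferon signal, moved less and stood at 55.5, 32.2, and 44.2 CPM. Ifit1 went the other way with 8, 19, and 205 reads.

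**Figure D4:**
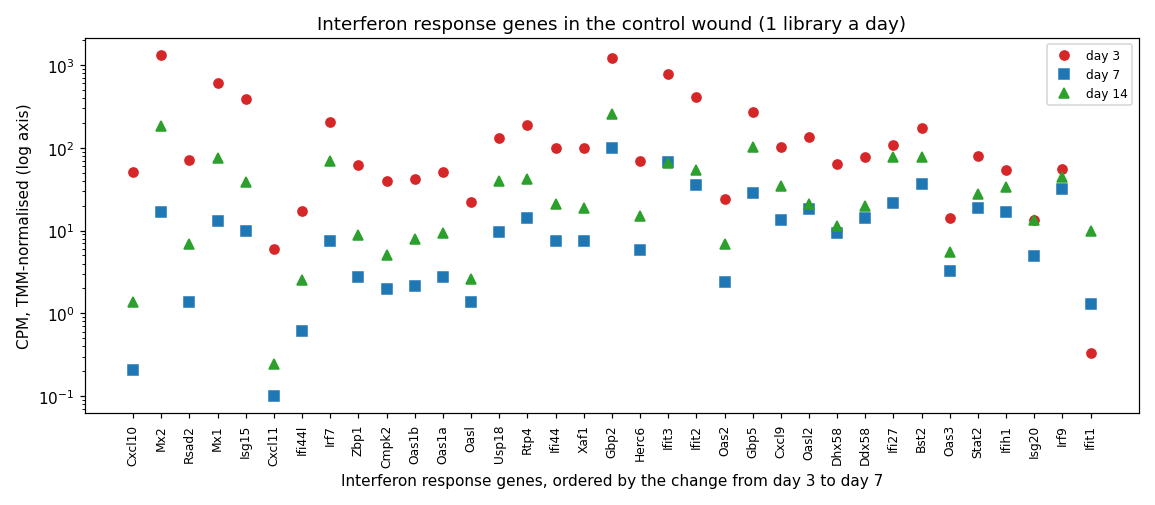
CPM on a log axis of 35 of the 36 interferon response genes in the control wound on day 3, 7, and 14 (1 library a day), ordered by the change from day 3 to day 7, with 0 reads drawn at 0.1 CPM. The day 3 point lies above the day 7 point in all of them except Ifit1 at the right end.

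The d-SMG library of day 3 and the s-GAG library of day 14 stood apart from the other dressed libraries, with TMM factors of 0.741 and 0.746 against 0.945 to 1.26. In the former the basal keratinocyte list summed to 110.8 CPM and the muscle sarcomere list to 293700 CPM, against 5618 and 102300 CPM in the control of that day. Counts that rest on them are therefore given with and without them. On day 3 the control library stood above all 3 dressed libraries in 35 of 36 interferon genes, against 26.3% of all genes, and below all 3 in 0 genes, against 22%. Without d-SMG it stood above both others in 35 genes, against 43.3% of all genes. On day 7 it stood below all 3 in 19 genes and above in 1, with 23.9% and 26.4% of all genes, respectively. On day 14 it stood above all 3 in 30 genes and below in 0, with 31.1% and 27.6% of all genes, and without s-GAG above both others in 32, against 39.2%. Mx2 on day 3 was read at 1321 CPM in the control, 9.24 with d-SMG, 323 with s-GAG, and 38 with Alg. The list summed to between 399 and 2221 CPM in the dressed wounds on day 3, to between 715 and 1392 on day 7, and to between 524 and 900 on day 14. The median log2 ratio of the list from day 3 to day 7 was 1.04 with d-SMG, -0.80 with s-GAG, and 0.74 with Alg, beside -3.59 in the control, and among all genes the difference between the courses on this step was called for 0 by edgeR and for 2 by DESeq2.

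The 5 measured neutrophil genes and the attractants Cxcl6 and Cxcl3 were lowest on day 14. Of 14 neutrophil genes 5 passed the minimum. Among those under it, Mpo had 2, 1, and 1 reads and Elane 2, 1, and 0. Cxcr2 had 3, 32, and 7 reads and Mmp8 13, 44, and 24, both with the fewest on day 3. The list summed to 138, 203, and 20.2 CPM on day 3, 7, and 14. Of the 5 measured genes, 4 were at least 4-fold lower on day 14 than on day 7, against 1.86% of all genes. Lcn2, a siderophore-binding protein made by neutrophils and by stressed epithelium, had 1477, 1140, and 16 reads, 99.5-fold lower on day 14 than on day 7 (log2 interval -7.45 to -5.93). Mmp9 had 251, 312, and 17 reads, and S100a9, an alarmin, stood at 41, 57.9, and 7.61 CPM.

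Among 15 measured cytokines and chemokines, 3 were in the peaking, 2 in the falling, and 1 in the rising course. Of all genes 0.882%, 0.904%, and 2.16% were, respectively. The list's sum went from 122 to 222 and 66.5 CPM. The neutrophil attractants Cxcl6 and Cxcl3 and the granulocyte growth factor Csf3 were in the peaking course, Cxcl3 with 92, 261, and 1 reads and Csf3 with 9, 50, and 2. The monocyte attractants Ccl3 and Ccl4 were in the falling course, and Ccl2 stood at 20.6, 3.06, and 3.37 CPM. Nos2, the inducible nitric oxide synthase, had 278, 284, and 15 reads and was 26.4-fold lower on day 14 than on day 7 (log2 interval -5.58 to -3.98). Il1a, an alarm cytokine of keratinocytes, was the 1 rising member with 8, 23, and 72 reads.

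The macrophage list moved little as a whole. Its 15 measured genes had median log2 ratios of -0.02, -0.43, and -0.30 for day 7 over 3, 14 over 7, and 14 over 3, and 1 of 15 differed 4-fold between neighboring days. That gene was Msr1, a scavenger receptor, at 53.5, 92.7, and 18.3 CPM. The complement genes C1qa, C1qb, and C1qc stayed within 2-fold. Among 7 measured genes of the M2 type, members went opposite ways. Arg1 (arginase 1) was in the peaking course at 8.03, 90.8, and 3.8 CPM, while F13a1 (the A chain of coagulation factor XIII) in the dipping course at 90.9, 16.5, and 210 CPM. Ccl24 stood at 7.52, 6.27, and 33.5 CPM, and Cd163, the hemoglobin scavenger receptor, at 325, 308, and 656 CPM.

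The T and NK cell list summed to 310.8, 423.7, and 338.4 CPM, most of it from Cd4, which rat macrophages carry as well, at 278.7, 364, and 303.4 CPM. The T cell receptor subunit Cd3d had 25, 69, and 123 reads, and the coreceptor Cd8a 222, 134, and 18, 10.4-fold lower on day 14 than on day 7 (log2 interval -4.18 to -2.66). Of 11 measured T and NK cell genes, 2 were at least 4-fold higher on day 7 than on day 3, against 2.64% of all genes. On day 14, 2 were at least 4-fold lower than on day 7, against 1.86%. Jchain, which joins secreted antibody chains, had 4, 10, and 312 reads, while the B cell genes Ms4a1 and Pax5 had at most 14 reads on any day. Of 7 measured mast cell genes 3 were in the rising course, against 2.16% of all genes. Among them were the proteases Cpa3 at 2.9, 3.27, and 16.9 CPM and Tpsb2 at 0.924, 1.09, and 5.51 CPM. MHC class II genes had a median log2 ratio of -0.68 between day 14 and day 3, and of -0.16 with the correction for length. Of the 8 members 7 were within 4-fold, and RT1-Db1 stood at 319, 70, and 24.7 CPM.

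Matrix genes stood highest on day 7. The 25 measured genes of collagens and matrix summed to 12310 CPM on day 3, 76010 on day 7, and 44590 on day 14, which was 1.22%, 7.48%, and 4.53% of the reads. Of the 25 genes, 14 were at least 4-fold higher on day 7 than on day 3, against 2.64% of all genes. The number at least 4-fold lower was 0, against 2.6%, and the median log2 ratio was 2.26. Between day 7 and day 14 the median was -1.0, so that day 14 kept a median of 1.44 over day 3. On this step 3 were at least 4-fold lower, against 1.86% of all genes. With the correction for length, which moves with this list at a median of 5.6 kb, the same medians were 1.91, -0.99, and 0.97.

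Fibrillar collagens carried most of these reads. Col1a1, the main chain of dermal collagen, was read at 1635, 15130, and 10370 CPM on day 3, 7, and 14, 9.26-fold higher on day 7 than on day 3 (log2 interval 3.19 to 3.23). Col3a1, the collagen of early scar, stood at 3836, 18350, and 12920 CPM. Col5a1, which sets the width of collagen fibrils, stood at 230, 3852, and 971 CPM and Col6a3, a chain of the beaded filaments around cells, at 262, 3003, and 955 CPM. Col12a1, a fibril-associated collagen of tissue under tension, had 887, 49555, and 4606 reads. It was 90.6-fold higher on day 7 than on day 3 (log2 interval 6.41 to 6.60) and 15-fold lower on day 14 than on day 7. Eln (elastin) was the 1 member of the rising course, at 69.5, 107, and 325 CPM.

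In the dressed wounds on day 7, Col12a1 stood at 957 CPM with d-SMG, 222 with s-GAG, and 435 with Alg, all below the 3376 CPM of the control. The control was below all 3 dressed libraries in 13 of the 25 matrix genes on day 3, against 22% of all genes, and above all 3 in 0, against 26.3%. It was above all 3 in 22 on day 7 and in 17 on day 14, against 26.4% and 31.1% of all genes. Without d-SMG the first count was 22 of 25, against 38% of all genes, and without s-GAG the last was 17, against 39.2%. The list's median log2 ratio from day 3 to day 7 was 1.67 with d-SMG, -0.74 with s-GAG, and 0.14 with Alg.

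Of 10 measured fibroblast genes, 2 were at least 4-fold higher on day 7 than on day 3, against 2.64% of all genes. On day 14, 3 were at least 4-fold lower than on day 7, against 1.86%. Cthrc1, a secreted protein of activated fibroblasts, was in the peaking course at 14.4, 148, and 32.4 CPM. Thy1 stood at 91.4, 332, and 62.6 CPM, and Lum (lumican) at 195, 651, and 148 CPM. Dcn (decorin), the proteoglycan of mature dermis, had its lowest value on day 7, at 935, 626, and 1265 CPM. The 16 genes of the TGF-beta pathway had no common direction from day 3 to day 7, with 8 lower and 8 higher, and the ligands Tgfb1, Tgfb2, and Tgfb3 stayed within 2-fold from day 3 to day 7. Inhba, the subunit of activin A, was in the peaking course at 12.5, 390, and 24.5 CPM, 31.3-fold higher on day 7 than on day 3 (log2 interval 4.80 to 5.14).

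The enzymes that cut this matrix did not move as a group. Among 18 measured metalloproteinases and inhibitors the median log2 ratios were 0.68, -0.40, and 0.03. The collagenase Mmp13 had 397, 556, and 16 reads, 48.5-fold lower on day 14 than on day 7 (log2 interval -6.42 to -4.89), and the inhibitor Timp1 stood at 253, 421, and 47.9 CPM. Mmp3 (stromelysin 1) went against them with 185, 18.1, and 77 CPM. Mmp27 had 231, 41, and 530 reads, and Mmp2 and Mmp14 were highest on day 14, at 868 and 593 CPM.

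In the epidermis the basal and the upper layers behaved differently by level. Of 13 measured basal and wound keratinocyte genes 0 differed 4-fold between any 2 days, with median log2 ratios of -0.09, 0.59, and 0.32. Krt15 stood at 622, 461, and 1673 CPM, and Krt17 at 225, 199, and 627 CPM. The 19 measured genes of differentiated epidermis summed to 758, 425, and 6407 CPM. From day 7 to day 14, 16 of 19 were at least 4-fold higher, against 3.19% of all genes, with a median log2 ratio of 4.21. The rising course held 6 of them and the dipping course 4, against 2.16% and 0.684% of all genes.

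The keratins of the spinous layer were in the dipping course. Krt10 had 5491, 382, and 47782 reads, 8.87-fold lower on day 7 than on day 3 and 89.5-fold higher on day 14 than on day 7 (log2 interval 6.34 to 6.63), and Krt1 stood at 221, 41.4, and 1651 CPM. Ivl (involucrin), a cross-linked protein of the envelope, stood at 17.1, 2.79, and 188 CPM. Flg (filaggrin), of the granular layer, stood at 3.11, 4.97, and 282 CPM. On day 7 the control lay below all 3 dressed libraries in 17 of the 19 genes and in 11 of the 13 basal genes, against 23.9% of all genes. On day 14 it lay above all 3 in 8 of the 19, against 31.1% of all genes, and below all 3 in 8 of the 13 basal genes, against 27.6%. Without s-GAG these last counts were 9 and 12, against 39.2% and 36% of all genes, so that the count of the 19 was near the share of all genes.

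Of 27 listed hair follicle genes 12 passed the minimum, and the list summed to 44.8, 98, and 2682 CPM. Of the 12, 9 were in the rising course, against 2.16% of all genes, and all 9 were keratins or Tchh. Krt71, a keratin of the inner root sheath, had 245, 155, and 4190 reads, and Krt73 had 1, 14, and 200. The follicle regulators stayed low, with Shh at 45, 3, and 12 reads and Lef1 at 34, 72, and 67. On day 14 the control lay below all 3 dressed libraries in 11 of the 12 genes, against 27.6% of all genes, and without s-GAG in 12, against 36%. The list summed to between 4572 and 45490 CPM in the dressed wounds of that day. How much intact skin at the wound edge each library held is not stated, and its part in these values was not tested. Sebaceous gland genes did not follow the hair keratins, with 0 of 13 members differing 4-fold and a median log2 ratio of 0.01 between day 14 and 3.

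Rat skin carries a thin sheet of skeletal muscle on its underside. The 26 sarcomere genes had median log2 ratios of -0.41, 0.05, and -0.61, the last being -0.1 with the correction for length, but single members moved far. Myh7, the slow myosin, had 3317, 63, and 397 reads, and Tcap (telethonin) stood at 5260, 854, and 1678 CPM. Myoglobin (Mb) stood at 735, 425, and 2550 CPM and Pvalb (parvalbumin), a calcium buffer of fast fibers, at 93, 482, and 645 CPM. Of 10 measured genes of muscle regeneration 6 were at least 4-fold lower on day 7 than on day 3, against 2.6% of all genes. On day 14, 5 were at least 4-fold higher than on day 7, against 3.19%. The dipping course held 4 of the 10, against 0.684% of all genes. They were the myogenic factors Myod1 at 19.2, 2.32, and 20.7 CPM and Myog at 239, 19.7, and 124 CPM, the fusion protein Mymx at 8.4, 1.43, and 15.8 CPM, and the fetal acetylcholine receptor subunit Chrng at 4.92, 0.545, and 7.02 CPM. Myh8, the perinatal myosin, was in the rising course at 101, 586, and 1484 CPM. On day 14 the control stood above all 3 dressed libraries in all 10 of these genes, against 31.1% of all genes, and also without s-GAG, against 39.2%.

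Genes of nerve and fat were lowest on day 7. All 9 measured Schwann cell genes were lower on day 7 than on day 3, with a median log2 ratio of -2.01. Of the 9, 5 were at least 4-fold lower, against 2.6% of all genes. Sox10, the transcription factor of the Schwann lineage, had 156, 14, and 84 reads, 6.87-fold lower on day 7 than on day 3 (log2 interval -3.69 to -1.99). On day 7 the control lay below all 3 dressed libraries in 9 of the 9 genes, against 23.9% of all genes. Of 14 measured adipocyte genes 2 were at least 4-fold lower on day 7 than on day 3, against the same 2.6%. Among them was Slc2a4, the insulin-regulated glucose transporter, at 69.9, 9.13, and 13.2 CPM. Adipoq (adiponectin) stood at 27.4, 8.45, and 52.8 CPM.

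Blood and vessel genes took separate courses. All 5 measured erythroid genes were in the rising course, against 2.16% of all genes, and the list summed to 17.9, 155, and 278 CPM. Hba-a1 stood at 10.2, 78.2, and 124 CPM and Hbb-b1 at 0.798, 9.4, and 23.9 CPM. Globin copies share sequence, and their split is uncertain. The dressed wounds ranged from 24.1 to 592 CPM in the same list over the 3 days. The 12 measured endothelial genes had median log2 ratios of 0.20 and -1.02 on the 2 steps, with none past 4-fold. Vwf, the clotting factor stored in endothelium, stood at 239, 190, and 65.5 CPM and Cdh5, the junction cadherin of vessels, at 119, 242, and 83.9 CPM. Vegfa stayed within 2-fold at 94.5, 100, and 92.5 CPM, and of 8 measured angiogenic ligands only Apln passed 4-fold, at 5.92, 8.79, and 2.05 CPM. Of 12 pericyte and smooth muscle genes, Rgs5 was 4-fold higher on day 7 than on day 3, at 7.78, 38.4, and 20.9 CPM, and Acta2, the actin of myofibroblasts, stood at 236, 342, and 134 CPM. Among 4 lymphatic genes, Ccl21 stood at 35.2, 11.2, and 71.9 CPM.

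Cell cycle genes were highest on day 7 in sum. The 30 proliferation genes summed to 842, 1132, and 561 CPM, with a median log2 ratio of -1.16 between day 14 and day 7. On this step 1 gene, the mitotic kinase Aurkb, was at least 4-fold lower, against 1.86% of all genes. Mki67 stood at 134, 249, and 116 CPM and Ccnb2 (cyclin B2) at 14.6, 16.1, and 4.05 CPM. On day 14 the control lay below all 3 dressed libraries in 27 of these 30 genes, against 27.6% of all genes, and without s-GAG in 30, against 36%.

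Immediate early genes switch on within minutes of a stimulus or of handling tissue. Of 15, 4 were in the rising course and 1 in the falling, against 2.16% and 0.904% of all genes. Fos had 173, 247, and 2983 reads, 8.64-fold higher on day 14 than on day 7 (log2 interval 2.92 to 3.31), and Egr1 stood at 6.72, 9.13, and 37.9 CPM. Fosl1, a FOS relative of wound-edge keratinocytes, went down from 294 to 103 and 25 reads. Of 13 measured glycolysis and hypoxia genes the median log2 ratio was -1.19 between day 14 and 3. Slc16a3, the lactate exporter, stood at 16.9, 19.5, and 2.63 CPM, and Bnip3, a mitophagy receptor induced by hypoxia, at 262, 55.2, and 97.8 CPM.

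Other lists stayed within 4-fold at every member. These were 21 genes of cholesterol synthesis (median log2 ratio -0.36 between day 14 and 3), 20 nuclear genes of the respiratory chain (-0.67), 14 clock genes (0.58), and 12 housekeeping genes (-0.57). The respiratory chain genes are short, at a median of 1.5 kb, and with the correction for length their median was -0.05. That of the housekeeping genes was -0.25 with the same correction. Gapdh, often used as a reference, stood at 442, 156, and 135 CPM, 2.83-fold lower on day 7 than on day 3. Of 10 repair growth factors, Hgf alone passed 4-fold, at 5.76, 11.4, and 2.68 CPM.

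**Figure D5:**
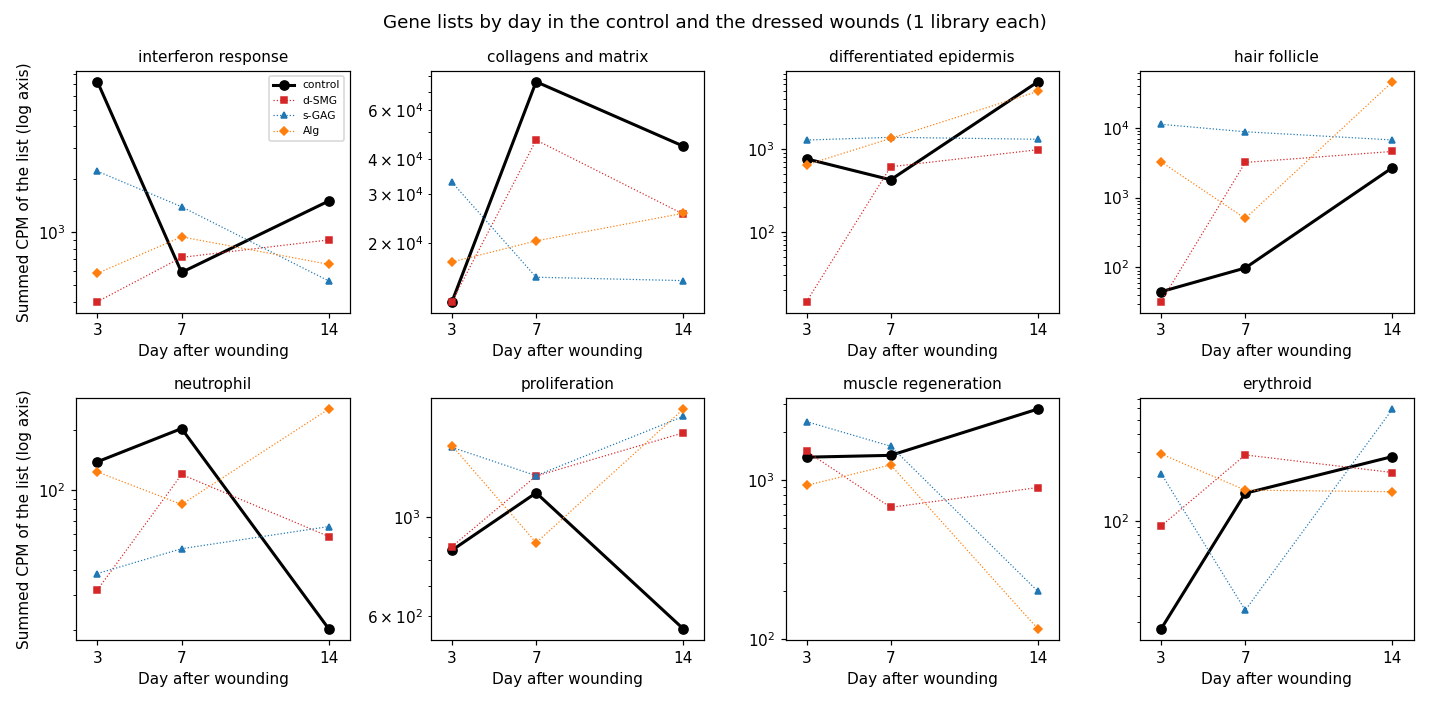
Summed CPM of 8 gene lists on a log axis against the day after wounding, with the control as a thick black line and the 3 dressings as thin dotted lines, 1 library a day each. In the control the interferon list goes from 7205 to 587 and 1502 CPM, collagens and matrix from 12310 to 76010 and 44590 CPM, and differentiated epidermis from 758 to 425 and 6407 CPM.

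The control courses were then set beside the dressed wounds gene by gene. Of the 119 falling genes, 37 (31.1%) were also at least 4-fold lower on day 14 than on day 3 with d-SMG, 15 (12.6%) with s-GAG, and 16 (13.4%) with Alg, where 5.73%, 10.4%, and 1.57% of all genes were. Of the 284 rising genes, 129 (45.4%) were at least 4-fold higher with d-SMG, 7 (2.46%) with s-GAG, and 29 (10.2%) with Alg, against 7.47%, 4.4%, and 0.76% of all genes. With s-GAG 91 of the 284 were at least 4-fold lower on day 14 instead, where 10.4% of all genes were. Of the 116 peaking genes, 21 met the same rule with d-SMG, 1 with s-GAG, and 9 with Alg, where 0.334%, 0.228%, and 0.988% of all genes did. Of the 90 dipping genes, 0 met it with d-SMG, 0 with s-GAG, and 3 with Alg, with 0.16%, 0.182%, and 0.342% of all genes. The d-SMG counts rest on its library of day 3 and the s-GAG counts of falling and rising genes on its library of day 14. Both stood apart by TMM factor, and no Alg library did. Tissue make-up varied with Alg too, where the muscle sarcomere list summed to 53450, 182600, and 15010 CPM on day 3, 7, and 14. The hair follicle list summed to 3246, 501, and 45490 CPM in the same libraries. Length moved with the s-GAG course, where the median log2 change from day 3 to day 14 was 1.39 in the shortest bin and -1.05 in the longest. The falling genes had a median of 1.84 kb and the rising genes 4.58 kb, against 3.76 kb over all genes. No dressed value here was corrected for length, and the part of length in these counts and medians was not tested.

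The medians of the control's courses were also taken in the dressed wounds. These genes were chosen for the size of their change in single control libraries, so smaller medians elsewhere can follow from that choice alone. The medians therefore do not say how far a course carried over. The 284 rising genes had a median log2 ratio between day 14 and 3 of 1.42 with d-SMG, -1.22 with s-GAG, and 0.34 with Alg. Over all genes the same medians were 0.01, -0.094, and 0.012. The 116 peaking genes had medians of 1.63 and -1.66 on the 2 steps with d-SMG, -0.16 and -0.75 with s-GAG, and 0.56 and -0.31 with Alg. The 90 dipping genes had medians of 0.58 and 0.16 with d-SMG, -0.24 and -0.37 with s-GAG, and -0.15 and 0.13 with Alg. Tnc, at 23.8, 870, and 28.3 CPM in the control, stood between 86.5 and 194 CPM in all 9 dressed libraries. Fam111a, at 131, 10.4, and 7.61 CPM in the control, stood at 169, 158, and 214 CPM with d-SMG and at 131, 9.19, and 18.9 CPM with Alg.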

How the data were processed

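Wound skin of diabetic rats was sequenced from stranded, rRNA-depleted libraries. The authors deposited whole-number read counts of 25620 genes without normalization, and FPKM of 25524 genes that the authors scaled by length and mapped fragments. The submitters' processing notes name bcl2fastq, FastQC, TopHat2, and edgeR. Genome build, annotation, and counting tool are not given in the sources used here. Each table holds 1 further column that matches no described sample and was not used. Groups came from the treatment labels, with 1 library each, and 12 libraries of 13748887 to 38302461 reads entered the fit.

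Counts were scaled by TMM (edgeR 4.0.16, R 4.3.3) and floored at 3 reads. Genes with at least 50 reads in 1 control library were sorted by 4-fold. glmQLFit on 6 cells (control or dressed by day) was used with filterByExpr and Benjamini-Hochberg adjustment, two-sided, and DESeq2 1.42.0 as an alternative. The scripts were tested on simulated data. Transcript length was taken as reads relative to FPKM and to the library total, as the median over libraries with at least 20 reads.

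The genes named are the 6 with the largest change in each course (at least 100 reads in the highest library, no provisional symbol) and up to 4 members of each of 34 lists with the largest difference between days. Genes beside these were chosen after their values were seen. The lists, the course, and the tests were chosen with earlier results of these data known. The correction for length and a looser rule for day 7 were added after seeing the data. Promoters and symbols came from RefSeq (GRCr8), which held 21825 of the 25620 symbols. Intervals used scipy 1.17.1, and figures matplotlib 3.10.9. Values of some list members are not reported here.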

Additional observations from a re-analysis of the deposited data

How the results depend on the processing

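With 1 library a day, leaving out a control library removes that day and was not run, and depth limits genes under 50 reads. With RLE size factors, the library size alone, TMM without the muscle list, or 100 reads as the minimum, the 4 counts stayed within 1.5 times, as they did with FPKM at a pseudocount of 0.1 and with the correction for length. The falling, rising, peaking, and dipping counts were 48, 81, 39, and 25 with FPKM at a pseudocount of 1, 736, 1023, 490, and 498 at 2-fold, and 47, 115, 41, and 19 at 8-fold. With no filter the first 3 were 248, 597, and 224. With day 7 allowed up to 2-fold outside the range, the falling count was 191. The number called by edgeR stayed at 0 in the 6 contrasts under RLE, the library size, no filter but 10 reads, dressing as a term, and without each dressing in turn (0 to 0), while DESeq2 called 50, 15, 16, 2, 20, and 15 genes. The cause of this difference between the tools was not tested. Of 102 list medians, the sign changed in 9 with the correction for length, 2 with a minimum of 10 reads, 1 with the library size alone, and 1 with FPKM at a pseudocount of 1. The M2 type macrophage list from day 7 to day 14 was -0.04 with 10 reads and 1.09 with 50. FPKM at a pseudocount of 1 moved 15 medians by over 1.5-fold (by up to 3.15 on the log2 scale), 10 reads moved 10 (1.7), and the correction for length 7 (0.67). Of 148 named genes, 0 changed sign, while FPKM at a pseudocount of 1 moved 53 by over 1.5-fold (up to 5.28) and the correction for length 26 (0.71). The fit with dressing as a term takes out a constant difference between dressings over the days. It does not pair libraries by rat, and the control libraries carry no such term.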
